A study of Pyrus x bretschneideri with 2 samples.

Results

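The 5 genes described here, Pbr003484, Pbr003485, Pbr003486, Pbr003487 and Pbr003492, are those of 45022 listed pear genes that were picked by identifier as a flavonol synthase 3-like cluster. Their identifiers lie close together in number, and all 5 carry the best database description flavonol synthase 3-like in the authors' deposited table of genes that differed between the libraries. They were picked because they stand in that table as lower with the yeast, so their levels and ratios are a description and support no test. The libraries came from fruit of Pyrus x bretschneideri, from tissue around wounds, with 1 library per group: the yeast library from pears given Meyerozyma guilliermondii, a yeast studied for control of fruit rots, and the water library from pears given sterile distilled water. Both groups were wounded pears kept 3 days at 20 °C. The yeast strain, the pear cultivar, the fruit age and the number of fruits per library are not given in the labels. With 1 library per group no difference below has a replicate check.

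Flavonol synthase is an iron- and 2-oxoglutarate-dependent dioxygenase that turns dihydroflavonols into flavonols such as quercetin and kaempferol, which fruits hold mainly as glycosides in the peel. Dihydroflavonols are also the substrate of dihydroflavonol 4-reductase, which leads to anthocyanins and proanthocyanidins, so the enzymes stand at a branch of the flavonoid pathway. The dioxygenase family is large, and its members have like sequences but act on many substrates, hormones and alkaloids included. A description taken from the best database hit therefore names a likeness and not a measured activity.

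The deposited descriptions of the members do not all name a flavonol synthase. The Swiss-Prot hit was flavonol synthase/flavanone 3-hydroxylase for 2 of the 5, Pbr003484 (from petunia) and Pbr003492 (from potato). It was SRG1, a dioxygenase of Arabidopsis named from senescence, for Pbr003485 and Pbr003487, and the probable dioxygenase DIOX2 of opium poppy for Pbr003486. All 5 share the KOG class QR. Of the 5, 3 carry the gene ontology terms for a 2-oxoglutarate dioxygenase that binds metal, Pbr003485 carries only oxidoreductase activity, and Pbr003492 carries no term. The name flavonol synthase 3-like is used below as the label of the best hit.

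The members split by the domains that Pfam found in them. Plant dioxygenases of this family usually have an N-terminal domain, listed as non-haem dioxygenase in morphine synthesis, and a C-terminal 2OG-Fe(II) oxygenase domain that holds the iron. Pbr003484 and Pbr003486 were listed with the C-terminal domain alone and Pbr003485 with the N-terminal domain alone, while Pbr003487 and Pbr003492 had both. So 3 of the 5 were listed with 1 of the domains, against 3 of the 13 other dioxygenases in the authors' deposited table. The 3 members listed with a single domain were also the 3 with FPKM above 0 in both libraries. Other dioxygenases listed with both domains stood on either side. Pbr003836 had FPKM above 0 in both libraries and Pbr010910 was listed at 0 in the yeast library. No link between domains and level is read from the 5 members. The domain content was read from the annotation alone, and whether neighbouring gene models are pieces of a longer gene was not tested.

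Levels were deposited as FPKM, fragments for each kilobase of a gene's length, scaled to the library, so genes can be compared with each other within a library. Pbr003486 was the most abundant member, with 1.40 FPKM in the yeast library against 38.6 FPKM in the water library. Pbr003484 had 1.28 FPKM in the yeast library against 32.4 FPKM in the water library. Pbr003485 had 1.06 FPKM in the yeast library against 31.3 FPKM in the water library. These 3 genes were thus near 1 FPKM with the yeast and over 30 FPKM with water, where they ranked 3315, 3905 and 4035 from the top among all listed genes. They differed from each other by at most 1.32 times in the yeast library and 1.24 times in the water library, far less than the difference between the libraries. Neighbours of the same description may share reads, so the 3 levels may not be separate measurements. Whether sharing bears on their likeness was not tested.

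The 3 genes were lower in the yeast library by 27.6 times (Pbr003486), 25.3 times (Pbr003484) and 29.4 times (Pbr003485). Their log2 ratios of yeast over water, with 1 FPKM added to each value, were -4.04, -3.87 and -3.97. On this scale they ranked 21, 26 and 24 from the lowest among 22603 genes of at least 1 FPKM in either library. Adding 1 FPKM shrinks the ratios of genes at low levels, so these ranks hold for this scale only. By the fold changes of the authors' deposited table, the 3 genes ranked 131, 136 and 125 from the lowest among its 381 genes. The median log2 ratio with 1 FPKM added was 0.0052 over the 22603 genes, so the libraries were centred on each other. Of those genes 3.00% were at least 2-fold lower in the yeast library on this scale and 0.858% at least 4-fold lower. The 3 members passed both sizes, but they were picked from this same contrast, so nothing is read from their share or their ranks. In whole fruit tissue, fewer cells that make a transcript and less of it per cell cannot be told apart.

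The other members had little or no FPKM. Pbr003492 had 0.753 FPKM in the water library and was listed at 0 in the yeast library. Pbr003487 was listed at 0 in both. A listed 0 can be an estimate that failed, and of all 45022 genes 33.5% were listed at 0 in both libraries, so no fold is given for Pbr003487 from these values.

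**Figure D1:**
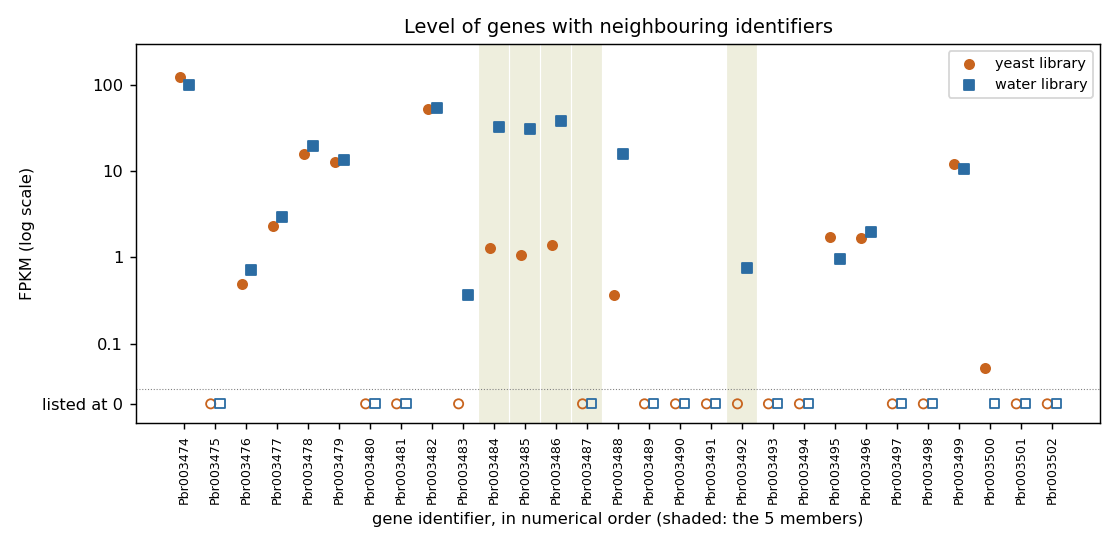
FPKM (log scale) of 29 genes with neighbouring identifiers in the yeast library (circles) and the water library (squares), with open symbols for genes listed at 0 and shading on the 5 members. In the water library Pbr003484, Pbr003485 and Pbr003486 stand at 31.3 to 38.6 FPKM and in the yeast library at 1.06 to 1.40 FPKM, Pbr003488 lies beside them, and the other abundant neighbours have nearly the same level in both.

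The authors' deposited table lists all 5 members as lower with the yeast, as it does 0.529% of the 45022 genes. The authors' deposited table gives log2 fold changes, yeast over water, of -4.78 for Pbr003484 (adjusted p = 5.75e-07), -5.05 for Pbr003485 (adjusted p = 8.28e-08) and -4.86 for Pbr003486 (adjusted p = 4.7e-07). The authors' deposited table gives -5.09 for Pbr003487 (adjusted p = 6.85e-08), the smallest adjusted p of the members, although the FPKM of this gene is listed at 0 in both libraries. It gives -7.50 for Pbr003492, with an adjusted p of 0.00984 that stands close to the highest of the authors' deposited table, 0.00994, with 6 of the 381 genes above it. These p-values compare the 2 libraries and not the treatments.

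The FPKM ratios and the fold changes of the authors' deposited table differed by less than 0.2 on the log2 scale for the 3 abundant members. Without a pseudocount the log2 FPKM ratios were -4.66 for Pbr003484, -4.88 for Pbr003485 and -4.78 for Pbr003486. The fold changes of the authors' deposited table were lower than these by small amounts, with differences of -0.12, -0.17 and -0.08 on the log2 scale. Over the 256 called genes with FPKM above 0 in both libraries, the median of this difference was -0.0038, with quartiles at -0.093 and 0.12, and 68.8% of the genes lay within 0.2. Pbr003484 and Pbr003485 lay below the lower quartile and Pbr003486 inside the quartiles. Pbr003487 was 1 of 3 called genes listed at 0 in both libraries, so its fold change in the authors' deposited table cannot have been formed from its listed FPKM.

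**Figure D2:**
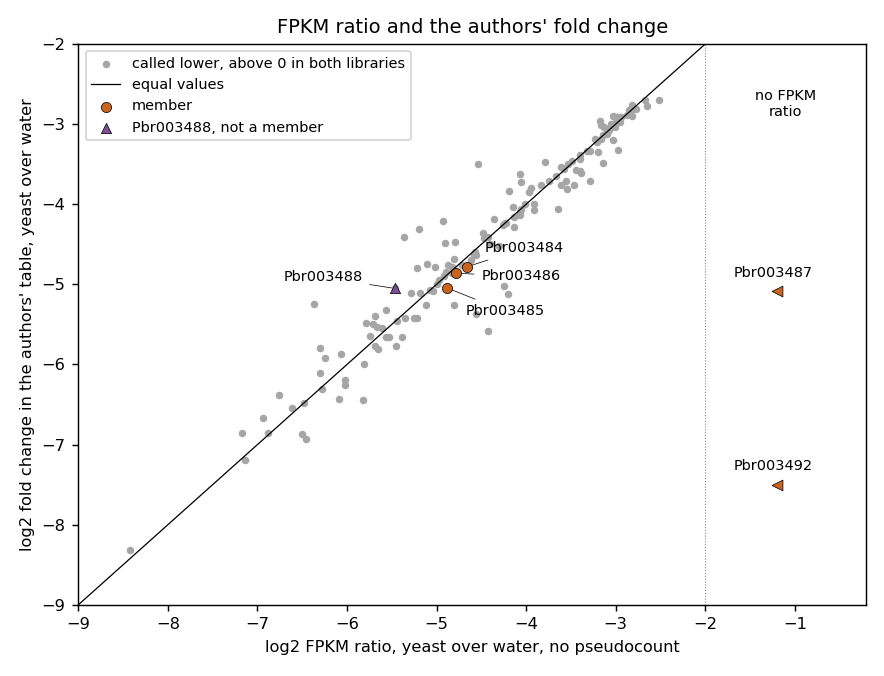
Log2 FPKM ratio without pseudocount (x) against the log2 fold change of the authors' deposited table (y), both yeast over water, for 153 called lower genes above 0 in both libraries, with 1 further gene left of the plotted range. Pbr003484, Pbr003485 and Pbr003486 lie just below the line of equal values, Pbr003488 above it, and Pbr003487 and Pbr003492 stand at the right because they have no FPKM ratio.

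For Pbr003492 the fold change in the authors' deposited table allows an estimate of the reads behind it. Among 84 genes called lower and listed at 0 in the yeast library, 67 had fold changes on evenly spaced steps within 0.02 of a step, and Pbr003492 lay at 23.0 steps. If 1 step is 1 read, the gene had 23 reads in the water library, with an exact Poisson 95% interval of 14.6 to 34.5 that covers counting error only. The depth ratio also needed a second step, fitted on 40 genes called higher and listed at 0 in the water library. Only 22 of those 40 lay on steps. By the sizes of both steps the water library was 1.05 times as deep. Against a floor of 3 reads in the yeast library, Pbr003492 was then at least 7.33-fold lower there when 23 reads are taken as exact. From the low end of the interval it was at least 4.65-fold lower in the yeast library. These bounds lie below the 25.3 to 29.4 times of the abundant ones, and no order between the members follows from them.

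Because neighbouring genes of the same description may share reads, the levels were also summed. The 5 members together had 3.74 FPKM in the yeast library against 103 FPKM in the water library, a ratio of 27.5 times and a log2 ratio of -4.45 with 1 FPKM added to each sum. Of the summed listed FPKM in the water library, 99.3% lay in Pbr003484, Pbr003485 and Pbr003486. This share counts Pbr003487 at its listed 0, although the authors' deposited table gives that gene a log2 fold change of -5.09. It is therefore a share of the listed values and may not be the share of the transcripts. FPKM is per length, so the sum still depends on how reads were divided among genes of different length, on reads shared with genes outside the 5, and on Pbr003487, which adds 0. The lengths and sequences of the genes were not used here, so neither the lengths nor how alike the genes are was measured.

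Pbr003488, whose identifier follows that of Pbr003487, has the same best description and was not among the 5. It had 0.364 FPKM in the yeast library against 16.0 FPKM in the water library, 44.1 times lower with the yeast, and it was listed with both domains. Its level in the water library was 47.0% of the mean of the 3 abundant members, 34.1 FPKM. The authors' deposited table gives it a log2 fold change of -5.05 (adjusted p = 1.73e-07), which is 0.41 above its log2 FPKM ratio of -5.46, outside the quartiles given above. With Pbr003488 added, the summed level was 4.11 FPKM in the yeast library and 119 FPKM in the water library, 29.0 times lower with the yeast.

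Pbr003484 to Pbr003488 formed the longest run of consecutive identifiers in the authors' deposited table. All of these but Pbr003488 are members, which were picked as lower neighbours by identifier, so the run largely restates that choice. Of the 307 called genes with Pbr identifiers, 43 had a called gene at an adjacent identifier, in 17 pairs, 1 run of 4 and this run of 5. The run of 4 was a group of peroxidase N1-like genes, Pbr026502 to Pbr026505, which were also lower with the yeast. All 17 pairs held genes of the same direction. In the authors' deposited table the log2 fold changes of the 5 consecutive genes spanned 0.31, from -5.09 to -4.78. Whether reads shared among these genes bear on this likeness was not tested. Consecutive numbers are taken as the files give them, and no positions in the genome were used.

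The genes on either side of the run stood within 2-fold in the libraries or below 1 FPKM. Among 24 non-member genes from Pbr003474 to Pbr003502, 9 had at least 1 FPKM in either library, 3 lay above 0 but under 1 FPKM, and 12 were listed at 0 in both. Apart from Pbr003488, the 8 genes of at least 1 FPKM had log2 ratios from -0.30 to 0.47, and none of these 8 was called. The nearest abundant neighbour below the run, Pbr003482, had 53.2 FPKM in the yeast library against 53.5 FPKM in the water library. Pbr003499, the most abundant after Pbr003492, had 12.2 FPKM in the yeast library against 10.6 FPKM in the water library.

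Among the remaining neighbours of at least 1 FPKM, Pbr003474 had 124 FPKM in the yeast library against 99.1 FPKM in the water library. Pbr003478 had 15.9 FPKM in the yeast library against 19.8 FPKM in the water library, and Pbr003479 had 12.7 FPKM in the yeast library against 13.4 FPKM in the water library. Pbr003477 had 2.30 FPKM in the yeast library against 2.97 FPKM in the water library. Of these 4 genes, 1 was higher and 3 were lower with the yeast, all by less than 1.5 times. Pbr003495 had 1.71 FPKM in the yeast library against 0.952 FPKM in the water library, and Pbr003496 had 1.70 FPKM in the yeast library against 1.96 FPKM in the water library. Pbr003483, directly before the run, was listed at 0 in the yeast library and had 0.364 FPKM in the water library, and Pbr003489, Pbr003490 and Pbr003491, between Pbr003488 and Pbr003492, were listed at 0 in both.

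Outside the run, 3 further called genes had a description that names a flavonol synthase. Pbr029502, with the same flavonol synthase 3-like description and the N-terminal domain alone, had 2.76 FPKM in the yeast library against 19.9 FPKM in the water library, 7.21 times lower with the yeast. The assembled locus XLOC_023599, also flavonol synthase 3-like, had 0.271 FPKM in the yeast library against 3.38 FPKM in the water library, 12.5 times lower. XLOC_037744, described as flavonol synthase/flavanone 3-hydroxylase-like, had 0.136 FPKM in the yeast library against 5.70 FPKM in the water library, 41.9 times lower. With Pbr003488 there were 4 called flavonol synthase genes outside the 5 members, all 4 lower with the yeast, beside 62.5% of all 381 called genes. Their median log2 ratio was -2.52, beside -1.68 over 248 called genes of at least 1 FPKM and above 0 in both. The 248 hold genes of both directions and the 4 only lower ones, so these medians do not compare sizes of decrease. The 5 members were picked as lower and are left out of the 4. Genes that were not called carry no description in the files, so how many flavonol synthase genes the pear libraries held with no difference is not known from them.

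**Figure D3:**
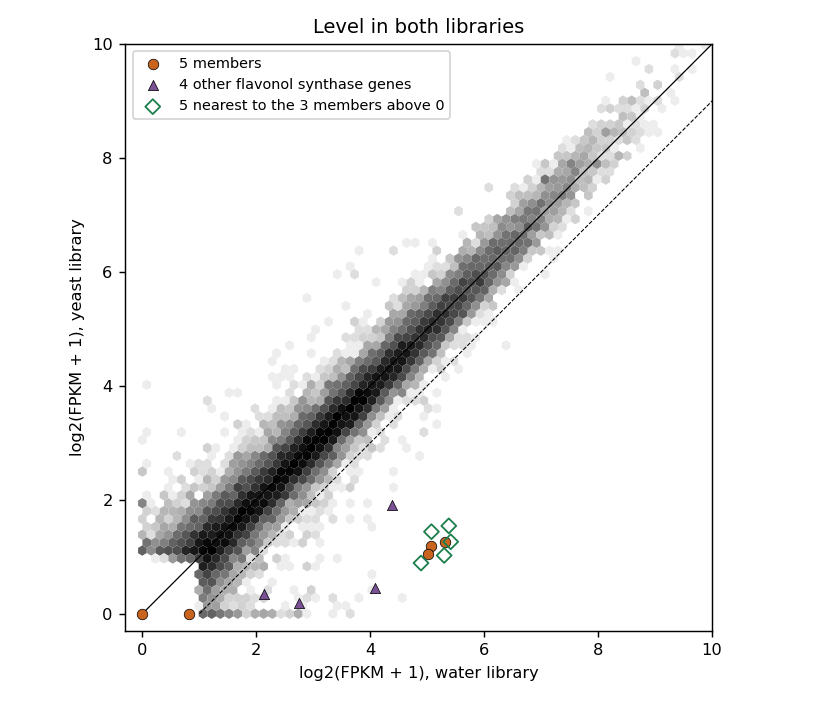
Level of each gene as log2(FPKM + 1) in the water library (x) and the yeast library (y), with 22603 genes of at least 1 FPKM in either library as grey density (darker for more genes), the solid line at equal levels and the dashed line at 2-fold lower with the yeast. Pbr003484, Pbr003485 and Pbr003486 lie together far below the dashed line at log2 ratios of -3.87 to -4.04, and Pbr003487 and Pbr003492 lie at the lower left.

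The members belong to a wider set of called dioxygenases that were nearly all lower with the yeast. Of 18 called genes described as 2-oxoglutarate-dependent dioxygenases or by a domain of that family, 1 was higher and 17 were lower. Without the 5 members the split was 1 higher and 12 lower, beside 62.5% lower among all 381 called genes. The 12 include the 4 other flavonol synthases counted above. Dioxygenases that were not called carry no description, so how many of the family did not differ is not known. Of these other 12, 9 had FPKM above 0 in both libraries and were 7.21 to 44.1 times lower with the yeast, a range that holds the 3 abundant members. The median log2 ratio of the 13 genes of this set above 0 in both libraries and of at least 1 FPKM was -3.11, and it was -2.67 over the 10 that are not members. The most abundant gene of the set was Pbr037264, described as probable inactive dioxygenase AOP2, with 12.1 FPKM in the yeast library against 111 FPKM in the water library. The AOP2 gene of Arabidopsis acts in making glucosinolates.

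At the ends of the set stood Pbr015355 and Pbr003836. Pbr015355, described as 1-aminocyclopropane-1-carboxylate oxidase homolog 4-like, was the 1 higher gene, with 3.92 FPKM in the yeast library against 0.320 FPKM in the water library. Pbr003836, described as AOP2, had 1.40 FPKM in the yeast library against 41.6 FPKM in the water library, with the lowest log2 ratio of those above 0 in both libraries, -4.15. Pbr003486, at -4.04, had the lowest after it. This order holds with 1 FPKM added: without it Pbr003488 (44.1 times lower with the yeast) and XLOC_037744 (41.9 times) come before Pbr003836 (29.7 times).

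**Figure D4:**
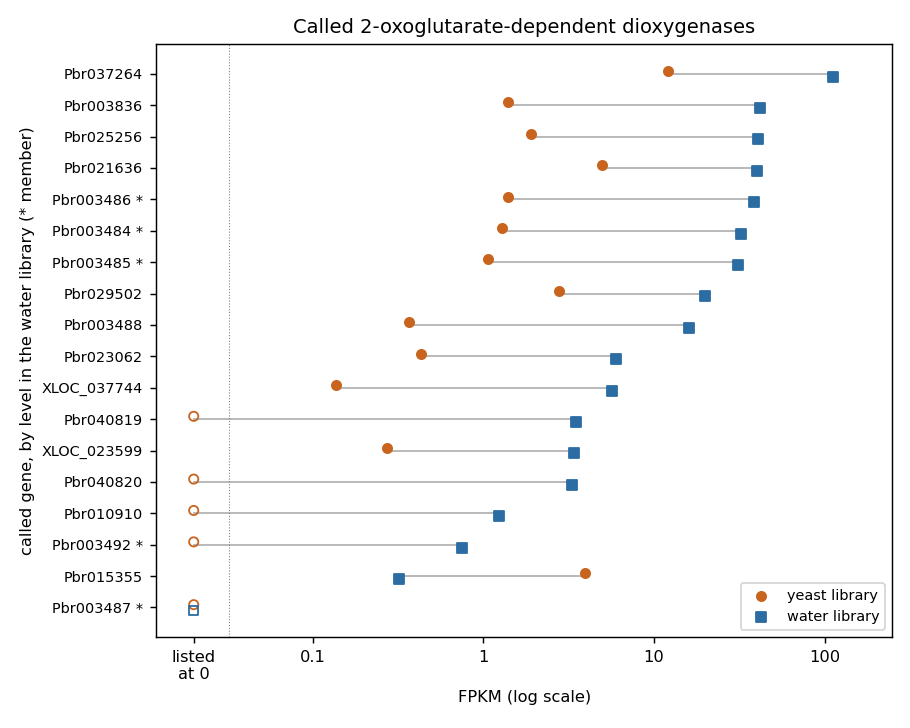
FPKM (log scale) of the 18 called dioxygenases in the yeast library (circles) and the water library (squares), ordered by level in the water library, with open symbols at the left for genes listed at 0 and an asterisk on members. Pbr015355 alone has the yeast value on the right, and Pbr003486, Pbr003484 and Pbr003485 follow each other with gaps of 25.3 to 29.4 times.

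Few other genes described as enzymes of the flavonoid pathway were among the 381 called of 45022 listed genes. Genes not called carry no description, so how many genes of this pathway were listed but not called is not known. Chalcone synthase and chalcone isomerase, which open the pathway, flavonoid 3'-hydroxylase and the phenylpropanoid enzymes phenylalanine ammonia-lyase and cinnamate 4-hydroxylase were each the description of 0 called genes. The list of core pathway enzymes had 7 called genes, 1 higher and 6 lower, but 5 of the 6 lower ones were the flavonol synthases above, Pbr003484 and Pbr003492 included, caught because their descriptions name flavanone 3-hydroxylase as well. Its median log2 ratio was -2.56 over 5 genes above 0 in both libraries. All of these but Pbr005931 are flavonol synthases, the picked member Pbr003484 included, so this median does not describe the other core enzymes. The higher gene was Pbr005931, the bifunctional dihydroflavonol 4-reductase of the competing branch, with 2.17 FPKM in the yeast library against 0.151 FPKM in the water library. The remaining lower gene was Pbr010910, a leucoanthocyanidin dioxygenase that leads to anthocyanidins, which was listed at 0 in the yeast library and had 1.23 FPKM in the water library.

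The 3 other lists held few called genes. Of 2 genes at the entry of the phenylpropanoid pathway, both 4-coumarate--CoA ligase 2-like and both higher, Pbr024635 had 2.58 FPKM in the yeast library against 0.161 FPKM in the water library, and Pbr001283 had 3.00 FPKM in the yeast library against 0.412 FPKM in the water library. The list of flavonoid regulators had 2 called genes, both lower and both described as Myb4-like, a repressor of phenylpropanoid genes in Arabidopsis. Pbr025360 had 1.94 FPKM in the yeast library against 17.1 FPKM in the water library, and Pbr011095 was listed at 0 in the yeast library and had 3.83 FPKM in the water library. The list of flavonoid-decorating enzymes had 1 called gene, lower, an anthocyanidin glucosyltransferase-like locus (XLOC_026729) with 1.5e-05 FPKM in the yeast library against 5.35 FPKM in the water library. Its log2 fold change in the authors' deposited table was -4.63, a far smaller difference than its FPKM values give.

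Genes with levels like those of the members were sought by distance over both libraries on the log2(FPKM + 1) scale. Around the mean position of all 5 members, 0.624 FPKM in the yeast library and 8.44 FPKM in the water library, the 5 nearest genes were Pbr016197 and Pbr015609 (both uncharacterized), the calcium-binding CML42-like gene Pbr013669, the jasmonate repressor gene TIFY 9-like Pbr003675 and the glutathione S-transferase gene Pbr020346, at distances of 0.093 to 0.21. No member lies at that position, since the mean falls between the 3 abundant genes and the 2 listed at or below 0.753 FPKM. Around the 3 abundant members alone, a choice made after seeing the data, the 5 nearest were Pbr027917, Pbr015755, Pbr003836, Pbr035929 and Pbr025256, at distances of 0.22 to 0.45.

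The closest of these, Pbr027917, is described as 4-hydroxycoumarin synthase 1-like, of the polyketide synthase family that makes biphenyls in pear relatives, and had 1.03 FPKM in the yeast library against 38.3 FPKM in the water library. The pectinesterase 2-like gene Pbr015755, of a family that modifies cell wall pectin, had 1.71 FPKM in the yeast library against 32.7 FPKM in the water library. The laccase-7-like gene Pbr035929, of a family of phenol oxidases, had 0.852 FPKM in the yeast library against 28.7 FPKM in the water library. Pbr003836 and Pbr025256 are dioxygenases described as AOP2, and Pbr025256 had 1.91 FPKM in the yeast library against 40.6 FPKM in the water library. Likeness over 2 libraries rests on 2 values per gene.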

How the data were processed

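RNA of 2 libraries, 1 per group, was sequenced after TruSeq library preparation, per the labels' protocols. The authors deposited FPKM values per gene for both libraries, and a table of 381 called genes with log2 fold changes (yeast over water) and adjusted p-values, per the file headers. The submitters' processing notes list Bowtie 0.12.2 with no role. Counter, build, annotation and comparison tool: not given in the sources used here. Sequencing depth is unknown, so FPKM values carry no counting interval. Columns were matched to groups through sample titles.

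The members, gene lists and naming rule were chosen with earlier results of these data known. With 1 library per group no test was made. Ratios are log2((yeast + 1)/(water + 1)) for genes of at least 1 FPKM in either library, with a 2-fold size rule. For named genes listed at 0 in a library no ratio is printed, while the ranks, medians and counts over all genes of at least 1 FPKM include genes at 0 in 1 library, through the pseudocount. The 6 lists were text patterns over the best hit, Swiss-Prot and Pfam descriptions. Named are the members, all other called flavonol synthases, neighbours within 10 identifiers, the 5 nearest genes in level, and list members of at least 1 FPKM (at most 6, otherwise the extremes of ratio and the most abundant). Pbr027917, Pbr015755, Pbr035929 and the peroxidase run were picked with their values in view. Calculations used Python 3.11.15, numpy 2.4.6, pandas 2.3.3 and scipy 1.17.1, and were tested on simulated data. Protein and promoter sequences were not used here.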

Additional observations from a re-analysis of the deposited data

How the results depend on the processing

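All values above rest on 1 library per group, so the spread between fruits is unknown, and Pbr003487 and Pbr003492 had no ratio to recompute. No paired analysis was possible because the values come from no test and each group holds 1 library. The 3 abundant members and their sum stayed lower under every setting tried, but no setting could have reversed them. A pseudocount cannot change the sign of a ratio, and the scaling settings rescaled the libraries against each other by only 0.0072 and 0.11 in log2. Log2 ratios of Pbr003484, Pbr003485 and Pbr003486 were -4.56, -4.75 and -4.69 with a pseudocount of 0.1, -4.66, -4.88 and -4.78 with none, and -3.96, -4.05 and -4.13 with FPKM totals made equal. With the median ratio set to 0 they were -3.88, -3.97 and -4.05. The ratio of the sums was -4.75 with a pseudocount of 0.1, -4.78 with none, -4.46 with the median set to 0, -4.55 with equal totals, -3.97 as the median of the 3 single ratios and -4.555 with Pbr003488 added, a setting chosen after seeing the data. Genes at least 2-fold lower with the yeast numbered 678, against 382 at a minimum of 5 FPKM (fewer genes enter), 1100 with a pseudocount of 0.1 (low genes then pass) and 682 with the median set to 0. The count with no filter was 678 by necessity. With 1 FPKM added, any gene at least 2-fold lower has at least 1 FPKM in the water library. Of the 5 nearest genes, 0 were shared with the 5 found with a pseudocount of 0.1 and 0 with the 5 found around the 3 abundant members.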
